A study of Mus musculus with 6 samples.

Results

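The 6 genes described here belong to intestinal goblet cells, the mucus-secreting cells of the gut lining. They are Retnlb, Clca1, Ccl9, Zg16 and Tff3, which encode secreted proteins, and Spdef, which encodes a transcription factor. They were chosen as goblet cell genes that the authors' gene table lists, and that table was itself selected on the genotype difference. The values of the genotype contrast therefore describe these genes and test nothing about them. All 6 were found, each with 1 probe set (the group of array probes that is summarised to 1 value), among 744 genes with a single symbol in that table and 28853 probe sets on the array. The arrays measured laser-cut epithelium of the crypt base in the ileum, the last stretch of the small intestine. The samples were 3 from Nod2-/- mice and 3 from wild type (WT) mice, all on the C57BL/6J background and 8 weeks old. Nod2 encodes a cytosolic sensor of muramyl dipeptide, a piece of the bacterial cell wall. The sources used here do not give how the Nod2 allele was made or whether the genotypes were littermates. The labels call the captures Paneth cells, the granule-bearing cells of the crypt base, but the cut followed position in the tissue and not a sort for a cell type.

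Goblet cells share a secretory progenitor with Paneth cells, and SPDEF acts late in this lineage and drives the goblet cell program. Their granules release the mucin gel together with small proteins that shape it or bind microbes. RELM-beta, the product of Retnlb, kills bacteria and acts in defence against worms, and its gene responds to type 2 cytokines and to the presence of gut microbes. CLCA1 is a secreted protease-like protein of mucus that is also induced by type 2 cytokines, ZG16 is a lectin that binds Gram-positive bacteria, and TFF3 is a trefoil peptide that aids repair of the epithelium. CCL9 is a chemokine that attracts myeloid cells, and in the mouse gut it is also made by epithelium.

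The 6 genes did not share 1 direction. Retnlb, Clca1, Ccl9 and Spdef were higher in Nod2-/- than in WT, by 13.3-fold, 4.09-fold, 1.76-fold and 1.39-fold, and for these 4 each Nod2-/- array lay above each WT array. Zg16 and Tff3 were lower in Nod2-/-, by 3.89-fold and 1.36-fold, and in both the arrays overlapped. In these bulk samples fewer cells of a type and less RNA per cell cannot be told apart. Over all 28853 probe sets, 3.42% had each Nod2-/- array above each WT array and 4.64% the reverse. A log2 difference of at least 0.41, the log of the authors' fold threshold, was found for 2.11% of probe sets in the higher and 1.23% in the lower direction. As the contrast chose the genes, nothing is read from their counts against these shares. Across all probe sets the fit with limma gave 0 with an adjusted p under 0.05 (Benjamini-Hochberg, lowest adjusted p = 0.183), where 1106, or 3.83%, had an unadjusted p under 0.05, so no gene named here passed the test.

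The median intensity of the 6 arrays lay between 34.5 and 35.4, and 3 arrays per genotype limit the precision. No label ties an array to a mouse of its own, so the spread between arrays may be partly technical. The column names of the gene table carry a number in the form of a date. Replicate 1 shares a number across the genotypes, replicates 2 and 3 share another, and what the numbers date is not stated. WT replicate 1 stood apart in genes of other cells and of host defence. Its intensity of H2-Aa, a class II antigen presentation gene, was 85.1 against 507 and 512 in the other WT arrays, and that of Reg3b, an antibacterial lectin, was 171 against 2748 and 1177. Differences are therefore also given by date and without single arrays. The Nod2 probe set has no name here, so the genotype labels were not checked by the level of the targeted gene.

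Spdef (chromosome 17, 27851394 to 27865896, minus strand, build mm9) had intensities of 377, 431 and 362 in Nod2-/- replicates 1, 2 and 3, against 285, 274 and 280 in WT. The WT arrays lay within 1.04-fold of each other, and each Nod2-/- array lay above them, the lowest by 1.27-fold. The mean log2 intensity was 8.60 ± 0.13 in Nod2-/- and 8.13 ± 0.03 in WT (SD, n = 3 each), so the difference was 0.48 (standard error 0.08, log2). By date it was 0.40 for replicate 1 and 0.51 for replicates 2 and 3, whereas the other 5 genes differed more in replicate 1. Without 1 array in turn it stayed between 0.40 and 0.53.

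The stretch around the start site was at hand for 2 of the 6 genes, Spdef and Ccl9, and it is printed for that reason alone. Both genes were higher in Nod2-/-, but within a genotype they did not move together. Among the WT values, Ccl9 had its minimum (217) in replicate 1, where Spdef peaked (285). Among the Nod2-/- values, Ccl9 had its minimum (429) in replicate 2, where Spdef peaked (431). The stretch of Retnlg, a resistin-like gene 53.7 kb from Retnlb that was also higher, is printed with those of Spdef and Ccl9 as a relative from outside the 6. Each stretch runs from 250 bases before to 50 bases after the start in RefSeq's GRCm38.p6 build, whose coordinates cannot be set against the mm9 coordinates of the probe sets. Capitals mark matches, on either strand, to the motifs TTTATG (CDX2, a factor of intestinal identity), TTC and GAA with any 4 bases between them (STAT6, which acts below the type 2 cytokine receptors), CCGGAT (SPDEF), and GGGA, any base and TTTCC in a row (NF-kB). None of the matches overlapped another.
Spdef, chr17:27728902-27729201, minus strand: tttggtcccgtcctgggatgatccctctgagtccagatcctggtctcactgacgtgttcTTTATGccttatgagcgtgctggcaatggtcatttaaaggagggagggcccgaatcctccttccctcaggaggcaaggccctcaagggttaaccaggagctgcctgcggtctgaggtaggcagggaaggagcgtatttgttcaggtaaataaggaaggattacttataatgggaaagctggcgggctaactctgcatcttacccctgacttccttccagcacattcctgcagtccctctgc
Ccl9, chr11:83578587-83578886, minus strand: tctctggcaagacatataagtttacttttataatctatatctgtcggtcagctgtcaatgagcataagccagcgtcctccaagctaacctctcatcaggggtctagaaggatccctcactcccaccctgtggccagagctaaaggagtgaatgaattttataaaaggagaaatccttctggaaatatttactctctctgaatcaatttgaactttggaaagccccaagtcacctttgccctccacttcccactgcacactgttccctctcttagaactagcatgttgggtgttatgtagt
Retnlg, chr16:48872358-48872657, plus strand: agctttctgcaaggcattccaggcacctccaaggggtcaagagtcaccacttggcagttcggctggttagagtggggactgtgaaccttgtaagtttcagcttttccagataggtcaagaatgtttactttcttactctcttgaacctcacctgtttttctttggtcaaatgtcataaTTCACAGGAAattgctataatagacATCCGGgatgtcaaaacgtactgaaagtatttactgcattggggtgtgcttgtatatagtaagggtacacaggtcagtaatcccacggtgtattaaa

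The Spdef stretch held 1 match, TTTATG at 191 bases before the start, a motif found in 11.9% of the 32851 promoters of the same length. The Ccl9 stretch held none of the 4 motifs. The Retnlg stretch held a STAT6 match, TTCACAGGAA, at 72 bases before the start and the reverse complement of the SPDEF motif, ATCCGG, at 47 bases before it. These motifs occur in 6.95% and 6.04% of all promoters, and the NF-kB motif occurs in 0.411%. A match describes the letters and is not a binding site, and the absence of a match says nothing about the factor.

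Retnlb (chromosome 16, 48816969 to 48819017, plus strand) had the widest gap between genotypes of the 6. Its intensity was 1727, 765 and 501 in Nod2-/- replicates 1, 2 and 3, against 26.1, 155 and 69.9 in WT. The lowest Nod2-/- array was 3.23-fold above the highest WT array, and WT replicate 1 lay below the median of its own array. Within a genotype the gene also varied widely, by 3.45-fold among the Nod2-/- arrays and by 5.93-fold among the WT arrays. The mean log2 intensity was 9.77 ± 0.91 in Nod2-/- and 6.04 ± 1.29 in WT, a difference of 3.73 (standard error 0.91). Replicate 1 of both genotypes carried the extremes, so the difference was 6.05 on its date and 2.57, or 5.95-fold, on the date of replicates 2 and 3. The fold was 8.37 without WT replicate 1 and 20.4 without WT replicate 2.

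Clca1 (named Clca3 in the authors' table, chromosome 3, 144667501 to 144695736, minus strand) had intensities of 1203, 1391 and 1033 in Nod2-/-, against 264, 571 and 168 in WT. The Nod2-/- arrays lay close together, within 1.35-fold, while the WT arrays spanned 3.41-fold, and the lowest Nod2-/- array was 1.81-fold above the highest WT array. Mean log2 intensities were 10.23 ± 0.21 in Nod2-/- and 8.20 ± 0.89 in WT, a difference of 2.03 (standard error 0.53). Unlike Retnlb, Clca1 gave close values on both dates, 2.19 and 1.95. Without WT replicate 3, its lowest array, the difference was 1.63, and without WT replicate 2, its highest WT array, it was 2.51.

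Ccl9 (chromosome 11, 83386419 to 83392138, minus strand) had intensities of 570, 429 and 479 in Nod2-/-, against 217, 334 and 294 in WT. The groups stood apart by 1.28-fold, from the lowest Nod2-/- to the highest WT array. The mean log2 intensity was 8.93 ± 0.21 in Nod2-/- and 8.11 ± 0.32 in WT, a difference of 0.82 (standard error 0.22). Here too replicate 1 held both extremes, with a difference of 1.39 on its date against 0.53 on the other date.

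Zg16 (chromosome 7, 134193670 to 134195491, minus strand) was near the bottom of the scale in all 3 Nod2-/- arrays, at 27.8, 27.6 and 32.1, each below its array's median. The WT arrays gave 260, 185 and 30.3. WT replicates 1 and 2 lay far above the array medians, while WT replicate 3 lay among the Nod2-/- arrays. The mean log2 intensity was 4.86 ± 0.12 in Nod2-/- and 6.82 ± 1.67 in WT, a difference of -1.96 (standard error 0.96). By date it was -3.22 for replicate 1 and -1.33 for replicates 2 and 3. In folds, Zg16 was 2.57-fold lower without WT replicate 1 and 7.53-fold lower without WT replicate 3. Signal over background was not analysed, so a fold against arrays this dim may be too small.

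Tff3 (chromosome 17, 31262259 to 31266556, minus strand) was nearly level across Nod2-/-, at 1611, 1567 and 1599, against 3334, 2108 and 1434 in WT. WT replicates 1 and 2 lay above and WT replicate 3 below all Nod2-/- arrays. The mean log2 intensity was 10.64 ± 0.02 in Nod2-/- and 11.08 ± 0.61 in WT, a difference of -0.44 (standard error 0.35). By date it was -1.05 for replicate 1 and -0.14 for replicates 2 and 3, and it was -0.13 without WT replicate 1. Tff3 and Spdef were the members nearest to the authors' threshold, a log2 difference of 0.41 (0.32 where their unadjusted p was 0.05 or less). Zg16 and Tff3 entered the table by the fold alone, and the other 4 met both conditions. Goblet cell genes under the threshold carry no name here.

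**Figure D1:**
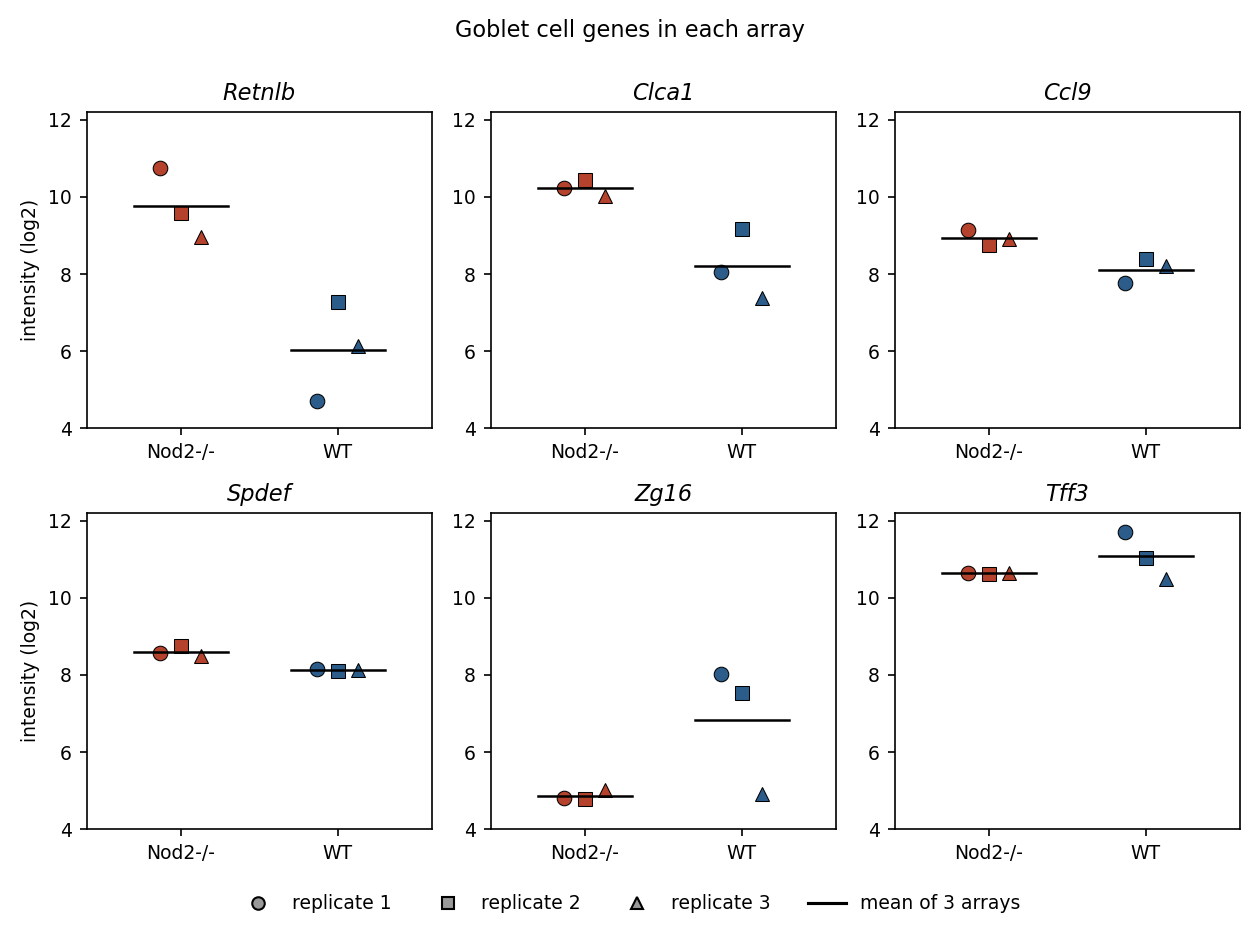
Log2 intensity of the 6 genes in each array, with Nod2-/- left of WT in every panel, 1 symbol per replicate number and a line at the mean of 3 arrays. Retnlb, Clca1, Ccl9 and Spdef show no overlap, and WT replicate 3 lies among the Nod2-/- arrays for Zg16 (4.92) and below them for Tff3 (10.49).

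**Figure D2:**
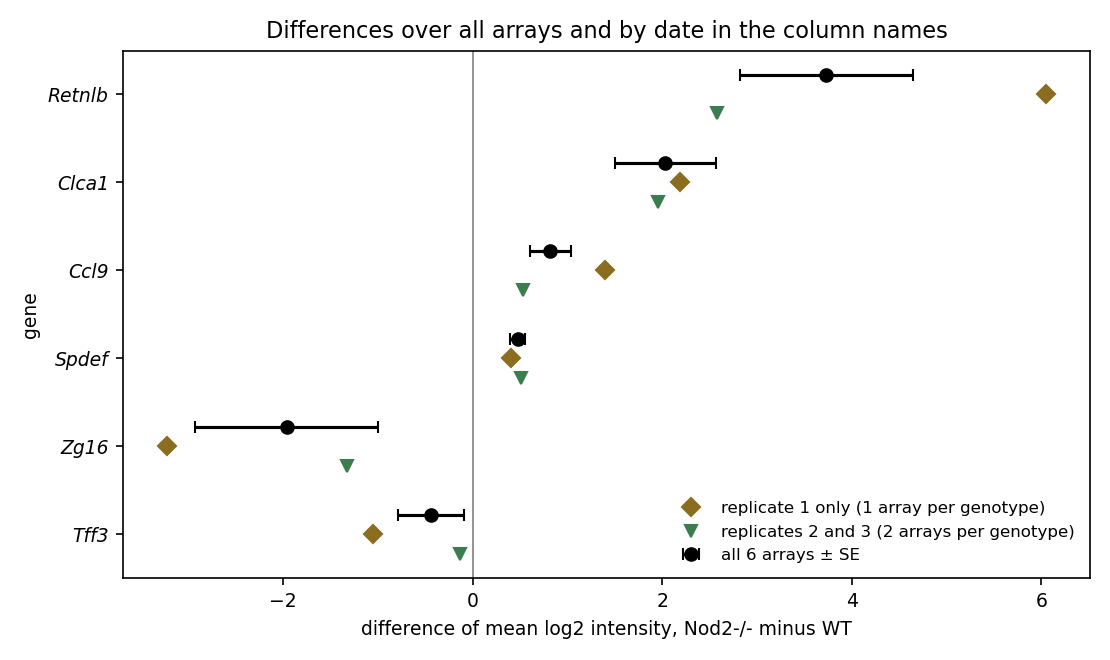
Difference of mean log2 intensity, Nod2-/- minus WT, for each gene over all 6 arrays (circle, with its standard error as a bar), for replicate 1 of each genotype (diamond) and for replicates 2 and 3 (triangle). All 6 genes keep their sign on both dates, and the differences of Retnlb run from 2.57 to 6.05 while those of Spdef stay at 0.40 and 0.51.

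Set against the Nod2-/- ranges, WT replicate 3 separated the genes that were higher from those that were lower. Among the WT arrays alone it did not, since Clca1 had its minimum there, as Zg16 and Tff3 did. In that array Zg16 (30.3) lay inside the Nod2-/- range of 27.6 to 32.1, and Tff3 (1434) lay below the Nod2-/- range of 1567 to 1611. In the same array Retnlb (69.9) and Clca1 (168) were far below their Nod2-/- ranges of 501 to 1727 and 1033 to 1391. A low level of Zg16 and Tff3 was found in an array without a high level of Retnlb or Clca1. WT replicate 1 was the reverse case for some of the genes, with the lowest Retnlb and Ccl9 and the highest Zg16 and Tff3 of all 6 arrays. The other higher genes did not follow, as Spdef (285) had its WT maximum there and Clca1 (264) lay between the other WT arrays. Centred on each gene's own mean, the 4 higher genes averaged 1.17, 0.88 and 0.59 in Nod2-/- replicates 1, 2 and 3, against -1.33, -0.27 and -1.04 in WT (log2). The 2 lower genes averaged -0.62, -0.65 and -0.53 in Nod2-/-, against 1.51, 0.94 and -0.65 in WT. The genes were grouped by direction, so the grouping itself sets these averages apart by genotype. Genes with large differences, Retnlb and Zg16 above all, weigh most in them. Without WT replicate 3 all 6 genes had arrays that did not overlap between genotypes, and without WT replicate 1 it was 4, as with all arrays. The 6 follows from the values above, since WT replicate 3 was the overlapping array of Zg16 and Tff3, so it tests nothing.

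The spread within a genotype is not independent of how the genes were chosen, since 1 far array also moves the mean behind the authors' fold. Without WT replicate 1, for example, Tff3 would lie under that threshold. The spreads are therefore a description. In 5 of the 6 genes the SD of log2 intensity was larger in WT, and Spdef was the exception. The SD was larger in WT for 55.8% of the 744 named genes of the table and for 50.6% of all probe sets. By the ratio of the SDs Tff3 differed most, with an SD of 0.02 in Nod2-/- and 0.61 in WT, followed by Zg16 with 0.12 in Nod2-/- and 1.67 in WT. Among all probe sets, whatever their intensity, the SD of Tff3 lay at the percentile 5.46 in Nod2-/- and 98.2 in WT. For Zg16 these were 57.7 and 99.9, and for Clca1 77.3 and 99.4. Retnlb varied widely in both, at 99.5 in Nod2-/- and 99.8 in WT. Spdef went the other way, at 60.3 in Nod2-/- and 9.26 in WT. With 3 arrays an SD is itself imprecise, and no test of these spreads was made.

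**Figure D3:**
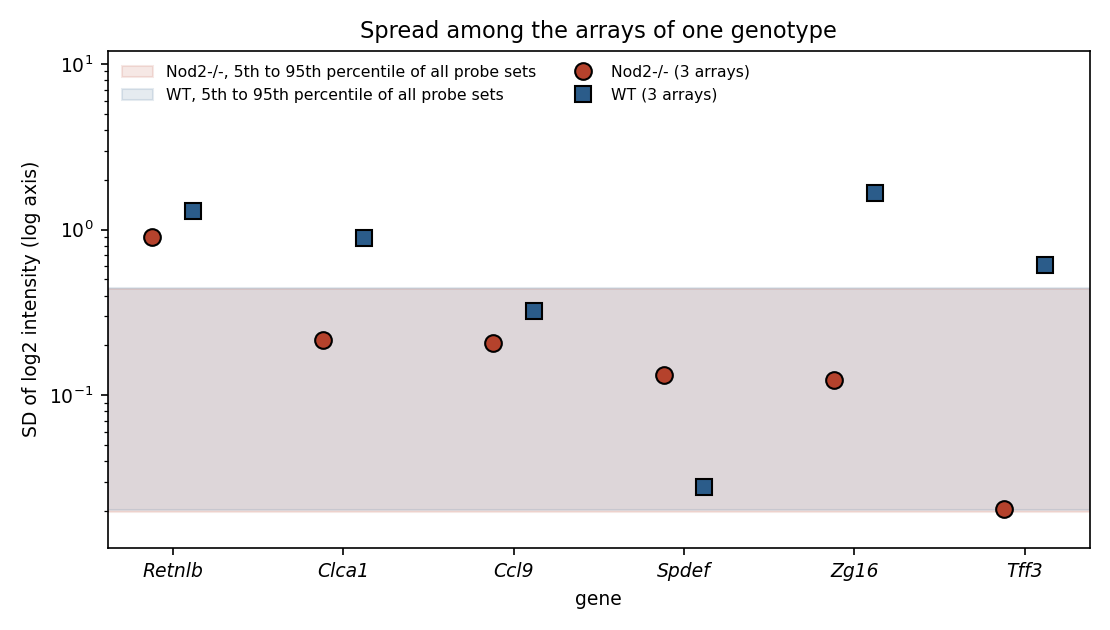
SD of log2 intensity among the 3 Nod2-/- arrays (circles) and the 3 WT arrays (squares) for each gene, on a log axis. The shaded bands run from the percentile 5 to 95 of all probe sets, 0.02 to 0.44 in both genotypes, and the WT squares of Retnlb, Clca1, Zg16 and Tff3 lie above them.

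Of 40 goblet cell markers, 7 have a probe set of their own in the authors' table, 5 of them higher and 2 lower in Nod2-/-. Their differences had a median of 0.48 (log2). Their intensities summed to 4180 to 5796 in Nod2-/- and 2419 to 4539 in WT, so the sums overlapped. Over all 744 named genes of the table the median was 0.43, with 447 higher and 297 lower, and over all probe sets it was -0.01. The authors kept genes by size of difference, so these counts and sums and those of the lists that follow test nothing. The marker outside the 6 genes was Slc12a8, a membrane carrier, with intensities of 279, 176 and 174 in Nod2-/-, against 154, 162 and 142 in WT. Its Nod2-/- arrays lay above the WT arrays, replicate 1 by the widest margin. St3gal6 and Tpsg1 are in the table through probe sets shared with another gene and were not counted. The other 31 have no place in it. Among them are Muc2, the main gel-forming mucin, Fcgbp, a mucus protein, Agr2, an enzyme of mucin folding, and Atoh1, the factor that commits cells to the secretory lineage. A gene without a place was either under the authors' thresholds or not measured under its symbol.

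Relatives of the 6 genes on the same chromosomes differed in both directions. Retnlg, a resistin-like gene 53.7 kb from Retnlb (chromosome 16, 48872758 to 48874611), had intensities of 53.6, 82.7 and 84.2 in Nod2-/-, against 28.0, 39.2 and 47.2 in WT. It was 1.93-fold higher, without overlap, and by like amounts on both dates (0.93 and 0.96 on the log2 scale). Retnlg is known from neutrophils and bone marrow in the mouse. Clca4b, 72.0 kb from Clca1 and named AI747448 in the table, went the opposite way from Clca1. It had 38.1, 33.4 and 39.8 in Nod2-/-, against 86.7, 51.4 and 53.4 in WT, which is 1.67-fold lower without overlap. Of 16 genes of the resistin-like, trefoil, Clca and Zg16 families, 6 are in the table, 3 higher and 3 lower. The trefoil genes Tff1 and Tff2, next to Tff3 in RefSeq, have no place in it. Nor have Retnla, between Retnlb and Retnlg, and Clca4a, between Clca4b and Clca1.

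Among 12 chemokine and chemokine receptor genes listed as related to Ccl9, 3 are in the table. Besides Ccl9 these were Ccl11, an eosinophil attractant, and Ccl7, a monocyte attractant. They share chromosome 11 with Ccl9 but are not its direct neighbours, with starts at 81871353 and 81859216 against 83386419 for Ccl9. Ccl11 had 325, 1315 and 908 in Nod2-/-, against 414, 462 and 698 in WT, with overlap. Ccl7 had 32.5, 43.3 and 30.9 in Nod2-/-, against 73.5, 45.0 and 48.8 in WT, which is 1.55-fold lower without overlap. The direct neighbours Ccl6, Ccl3, Ccl4 and Ccl5 and the CCL9 receptor gene Ccr1 have no place in the table, so Ccl9 was the only one of these 6 listed there.

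Of 33 genes of mucus glycosylation and secretion, 4 are in the table, and all 4 were higher in Nod2-/- without overlap. Among the 447 higher genes of the table, 219, or 49.0%, had no overlap, and nothing is read from counts this small. Fut2, which fucosylates mucins, had 109, 103 and 130 in Nod2-/-, against 43.8, 67.4 and 53.1 in WT. St3gal4, a sialyltransferase, was 2.55-fold higher, with 454 in Nod2-/- replicate 2 and 146 and 161 in the other Nod2-/- arrays, against 83.2, 108 and 71.8 in WT. C1galt1, which builds the core of mucin sugar chains, was 1.43-fold higher. Of 28 genes of type 2 cytokine signalling and its epithelial response, 4 are in the table, 1 of which, Fut2, is also in the list before. All 4 were higher without overlap. They were Pla2g4c, a phospholipase, Gsdmc2, Fut2 and Mcpt1, a mast cell protease. Probe sets shared by several genes, as those of Sprr2a1, Sprr2a2 and Sprr2a3 of this list, were not counted. Mcpt1 had 42.8, 30.3 and 189 in Nod2-/-, against 24.5, 24.1 and 25.7 in WT, so Nod2-/- replicate 3 carried most of its 2.53-fold difference. The cytokines Il4, Il5 and Il13, the receptor chain Il4ra and Stat6 have no place in the table.

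**Figure D4:**
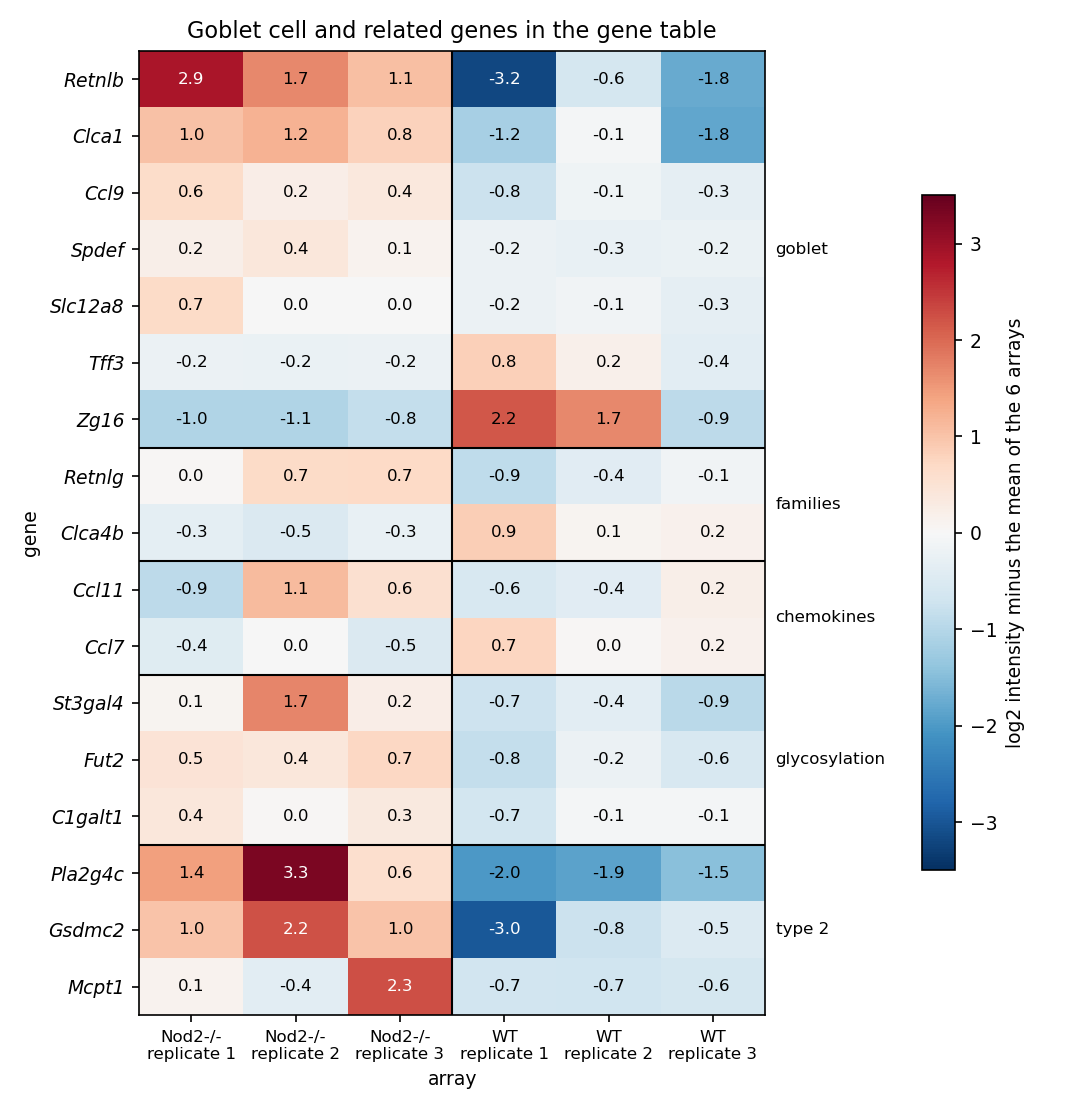
Log2 intensity minus the gene's mean over the 6 arrays, for genes of the goblet cell list and the 4 related lists that are in the authors' table (rows, each gene shown once under its first list, with 1 gene not shown) in each array (columns, Nod2-/- left of WT). Retnlb runs from 2.9 in Nod2-/- replicate 1 to -3.2 in WT replicate 1, and Zg16 is at 2.2 and 1.7 in WT replicates 1 and 2.

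The genes with profiles most like each of the 6 were taken as those with the smallest root mean square difference of centred log2 values over the 6 arrays, up to 3 for each, among the named genes. Retnlb was nearest to Gsdmc2, a gasdermin (0.96), Defb1, a beta-defensin (1.00), and Mptx1, a mucosal pentraxin (1.02). Clca1 was nearest to the small nucleolar RNA Snord14e (0.57), Tac1, which encodes substance P (0.57), and the small nucleolar RNA Snora3 (0.62). Ccl9 had Spred2, a Sprouty-related protein (0.11), and Chd7, a chromatin remodeller (0.13), among its nearest. Spdef was nearest to Gm9853 (0.06). Zg16, like Retnlb, had no close partner. The genes nearest to Zg16 were Smim20 (0.79), Igkv1-135 (0.81) and 4932438A13Rik (0.84), at smaller distances than those nearest to Retnlb. Tff3 was nearest to Imp3, a ribosome assembly factor (0.10), Zfp746, a zinc finger protein (0.10), and Uqcc3, an assembly factor of respiratory complex III (0.12). Between the 6 genes themselves the closest pair was Ccl9 with Spdef (0.32), and Zg16 and Tff3, which shared a direction, lay 1.01 apart. A small distance is easier to reach for genes with small differences.

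Markers of other cells are in the table too, none past the test. The sums given here cover only those members that the authors kept for their difference, so the selection itself sets the groups apart, and they do not measure the whole lists. Of 30 Paneth cell markers, 8 are in the authors' table and all were higher, and their intensities summed to 15498 to 25137 in Nod2-/- and 11402 to 12267 in WT. The narrow WT range joins genes that differed oppositely, as WT replicate 1 had the lowest Reg3b (171) and the highest Reg4 (2506) in WT. Of the 8 markers, 3 had no overlap between genotypes, where 48.7% of the named genes of the table had none. Of 24 tuft cell markers, 11 are in it, all higher, with sums of 540 to 1065 in Nod2-/- and 440 to 472 in WT. Of 24 enterocyte markers, 5 are in it, 4 of them lower, with sums of 721 to 1065 in Nod2-/- and 1053 to 1708 in WT. Fabp6, an ileal bile acid binding protein of enterocytes, had 90.8, 90.7 and 97.5 in Nod2-/-, against 410, 117 and 84.3 in WT. It was highest in WT replicate 1 and lowest in WT replicate 3, as Tff3 was. The other enterocyte markers in the table had their lowest values in other arrays, though those that were lower in Nod2-/- were also highest in WT replicate 1. Of 14 fibroblast markers, 8 are in the table, all higher, with sums of 2461 to 4305 in Nod2-/- and 1503 to 2558 in WT. Of 18 myeloid markers, 4 are in it, all higher on average, with sums of 1313 to 2068 in Nod2-/-, against 376, 2004 and 1738 in WT replicates 1, 2 and 3. Of 15 stem cell markers 4 are in it (1 higher, 3 lower), of 15 enteroendocrine markers 6 (5 higher, 1 lower), of 8 mast cell markers 2 (both higher) and of 14 other leukocyte markers 0. The part of these cells in the differences of the 6 genes was not tested. No intensity was at 0 on any array, the lowest being 18.8, and the defining Paneth cell genes Lyz1, Mmp7 and the alpha-defensins have no named place in the table, nor has Muc2 for goblet cells, so the cell makeup of the captures was not checked against them.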

How the data were processed

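Total RNA (100 ng per array) from methacarn-fixed, paraffin-embedded and laser-cut ileal crypt bases was hybridised to 6 arrays, per the labels' protocols. The deposited intensity of each probe set comes from RMA, as the submitters' processing notes state. This method corrects background and normalizes arrays to 1 distribution, so equal array medians say nothing about RNA input. Its version is not given in the sources used here. In the authors' gene table there are 1053 of the 28853 probe sets (3.65%), on the MoGene 1.0 ST array with mm9 positions per the file headers. Its intensities equal the value table in all 1053 (relative tolerance 0.001), and so do its ratio to the WT median and its log2 value minus the WT median when recomputed from the deposited intensities. The authors' fold and absolute fold ratio, signed fold score and unpaired p-value columns, per the file headers, selected the table and are not printed. All 962 probe sets past its fold threshold are in it. Of its probe sets 855 have 1 symbol, brought up to date through RefSeq by Entrez number.

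All probe sets were fitted without a filter on log2 intensities by limma 3.58.1 under R 4.3.3 (lmFit and eBayes), with genotype as the only term and Benjamini-Hochberg adjustment. Values per group are means ± SD of 3 arrays, a fold is the antilog of the difference of mean log2 values, and the standard error joins both groups' SDs. The alternatives were other priors, a filter on dim probe sets, array centring, an offset of 16, blocks, dates and single arrays left out (Python 3.11.15 for the members). Mist1 and Bhlha15 of the Paneth cell list are 1 gene and count once. Where a gene had several probe sets, the one with the highest mean stands for it. Named genes are the 6 members, the 3 genes nearest to each by root mean square difference, all genes of the goblet and related lists that are in the table, family neighbours, and up to 4 genes of each list of other cells. Some genes chosen by this rule are not reported here. The genes, lists and motifs were chosen with earlier results of these data known, and Muc2, Fcgbp, Agr2 and Atoh1 as well as Reg3b and H2-Aa were picked as examples. The planned protein comparison was not made, since no protein sequences were used here. Promoter sequences are those of RefSeq GRCm38.p6, which matched Spdef and Ccl9 by symbol. Retnlb, Clca1, Zg16 and Tff3 had no entry.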

Additional observations from a re-analysis of the deposited data

How the results depend on the processing

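Signal over background was not analysed. The levels of Zg16 in Nod2-/- and in WT replicate 3, and of Retnlb in WT replicate 1, lie under the array median. In 78 alternative values of the 6 differences the direction stayed the same, and 6 moved by more than the replicate SD. These 6 came from the dates. On the date of replicate 1 the log2 difference was 6.05 for Retnlb, 1.39 for Ccl9, -3.22 for Zg16 and -1.05 for Tff3, and on the date of replicates 2 and 3 it was 2.57 for Retnlb and 0.53 for Ccl9. The date of replicate 1 has 1 array per genotype and no test. The cause was not tested. Centring arrays on their medians, the offset, medians in place of means and the ratio of linear means moved none by that much.

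With 1 array left out the difference lay between 3.07 and 4.35 for Retnlb, 1.63 and 2.51 for Clca1, 0.64 and 0.95 for Ccl9, 0.40 and 0.53 for Spdef, -2.91 and -1.36 for Zg16, and -0.74 and -0.13 for Tff3. The number of the 6 genes without overlap lay between 4 and 6, and the median of the goblet cell list between 0.47 and 0.54. A lack of overlap is easier to reach with an array left out, and its share over all probe sets was not computed there. The count of all probe sets past limma's adjusted threshold, 0 in the fit reported (1106 at unadjusted p under 0.05), was 3 with the dimmer probe sets left out and 3 with a trended and robust prior, and between 0 and 2 with 1 array left out. It was 0 with the unpaired test of the file headers, which gave 1043 unadjusted.

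With the replicate block in limma the count was also 0 (lowest adjusted p = 0.969). Deviations from the genotype means correlated over probe sets at 0.201, -0.022 and 0.0614 for the same-numbered pairs, and not every array correlated best with its own number, so the numbers were not taken to pair the arrays. Of the 5 pairs across genotypes that share a date 4 were above 0 (-0.022 to 0.201), and all 4 pairs of different dates were below 0 (-0.198 to -0.0385). The deviations sum to 0 over the 3 arrays of a genotype, so pairs above 0 force others below 0. These correlations are therefore not independent and do not test a date effect. With the date as a block the count was 0 (lowest adjusted p = 0.432, with 1418 unadjusted), and within the date of replicates 2 and 3 it was 0 (lowest adjusted p = 0.184).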
